A study of Rattus norvegicus with 4 samples.

Results

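The regions described here are the wide H3K9me3 peaks of mesenchymal stem cells from rat adipose tissue, the stromal progenitors of fat. A peak was taken as wide when it spanned 500 bp or more. Peaks on chromosomes 1 to 20 were used, and those with a midpoint on chromosome 1 between 54 and 56 Mb or between 180 and 182 Mb were left out. This gave 212 wide peaks of 8266 on these chromosomes in the vehicle library and 899 of 15362 in the library treated with branched-chain amino acids (BCAA), 1111 of the 25660 peaks of all 4 lists of the series. The peaks were thus chosen by their width, so widths, numbers of wide peaks and the strength of a wide peak in its own library are given as descriptions. How the other library covered the same places did not enter the choice.

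Cells came from Sprague Dawley rats and were kept in high-glucose medium made without BCAA, with 10% fetal bovine serum. Both groups were exposed to 100 µM hydrogen peroxide, an oxidant, for the same 12 h, one with vehicle and the other with 3.432 mM BCAA. H3K9me3 was profiled by CUT&Tag, in which an antibody brings a transposase to the chromatin it recognises and the released DNA is sequenced, and rabbit IgG served as the antibody without a target. Each of the 4 groups (vehicle or BCAA, H3K9me3 or IgG) was a single library, and the labels do not say how many animals or cultures it came from. No difference between vehicle and BCAA below therefore has a replicate check, and an effect of BCAA cannot be told apart from a difference between libraries.

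Trimethylation of histone H3 at lysine 9 is laid down by enzymes such as SUV39H1, SUV39H2 and SETDB1 and is bound by heterochromatin protein 1. It is typical of constitutive heterochromatin, of silenced transposable elements and of some repeated gene families, and it often covers continuous domains because the proteins that bind it also recruit the enzymes that write it. The length of a marked stretch is thus a property of interest beside its strength. In a peak list, however, the length also depends on how long the sequenced fragments are and on how far apart 2 enriched pieces may lie before they are called separately.

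Wide peaks were a small part of both lists and a larger part of the BCAA list. They made up 2.56% of the peaks with vehicle and 5.85% with BCAA, and held 10.3% and 19.2% of the covered length. The BCAA list had 4.24 times as many wide peaks as the vehicle list (95% interval 3.65 to 4.95), against 1.80 times as many narrower peaks (1.75 to 1.85). The length under wide peaks was 151495 bp in the vehicle list and 692260 bp in the BCAA list, at mean widths of 715 and 770 bp. All intervals here are exact binomial and cover counting error only. The number ratio was 2.40 among wide peaks with a −log10 q of at least 5, where q is the authors' corrected p-value of a peak. It was 2.77 when wide meant at least 3 times the median width of the own list. The smallest gap between peaks (485 and 654 bp) and the shortest peak (119 and 163 bp) also differed between the vehicle and BCAA lists, and joining all peaks within 1 kb in both lists gave a number ratio of 3.72 (3.24 to 4.29). The lists give no read totals, so the depth of the libraries is unknown.

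Most wide peaks were only a little above the limit. The vehicle widths had a median of 608 bp (quartiles 541 and 750) and a maximum of 2402 bp, and the BCAA widths a median of 691 bp (588 and 842) and a maximum of 3486 bp. Peaks of 1000 bp or more numbered 24 with vehicle and 103 with BCAA, 11.3% and 11.5% of the wide peaks. The counts fell steadily with width through 500 bp in both lists, with no separate class of wide peaks. The vehicle peaks nearest the limit were 501 bp wide (chr5:9056214-9056714, fold enrichment 5.43) and 497 bp wide (chr2:165523326-165523822, 2.86, and chr6:133040969-133041465, 2.83). In the BCAA list 4 peaks of 500 bp had fold enrichments of 2.81 to 5.32, and 4 of 499 bp had 3.43 to 5.15. Fold enrichment is the authors' ratio of a peak's signal to a background. The sources used here do not say whether IgG entered that background, so fold enrichment is not compared between libraries.

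The 5 widest vehicle peaks were chr1:99054206-99056607 (2402 bp), chr19:49377271-49379261 (1991 bp), chr1:56035812-56037782 (1971 bp), chr13:33488049-33489982 (1934 bp) and chr5:168677649-168679506 (1858 bp). A single BCAA wide peak lay over each, covering between 74.8% and 100% of it. The third lies just beyond one of the left-out intervals of chromosome 1. The 5 widest BCAA peaks, of 2537 to 3486 bp, each overlapped 2 to 4 vehicle peaks and are described with the joined peaks.

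**Figure D1:**
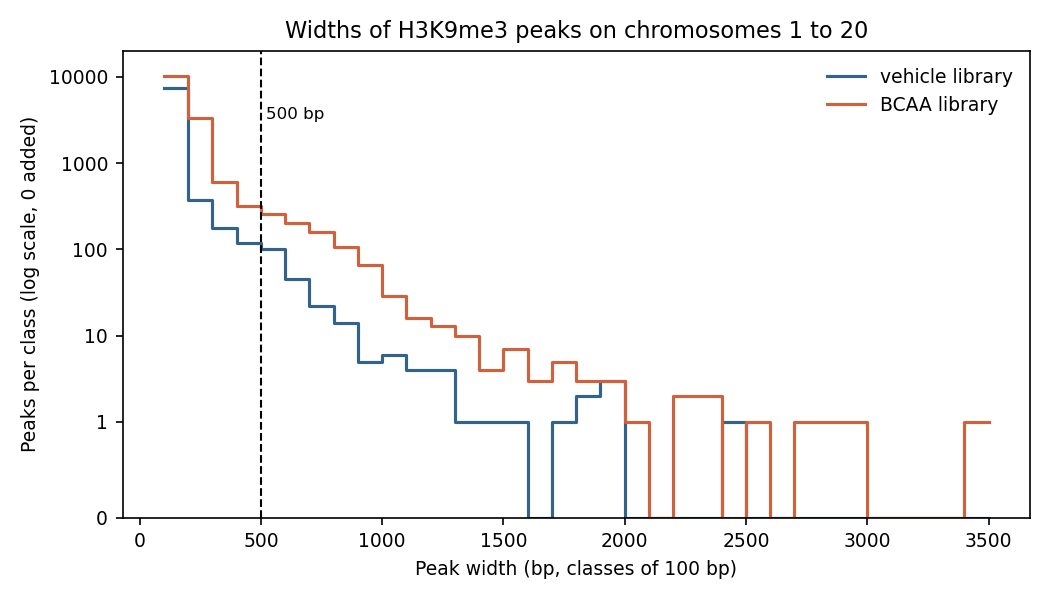
Number of peaks per 100 bp class of width (horizontal axis, bp) on a log scale with 0 added (vertical axis) in the vehicle and BCAA H3K9me3 libraries, with the 500 bp limit dashed. Both curves fall without a break through the limit, to a widest peak of 2402 bp with vehicle and 3486 bp with BCAA.

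Within each library wide peaks were somewhat stronger than narrower ones, with much overlap. The −log10 q of vehicle wide peaks had a median of 2.47 and ran from 1.32 to 231, against a median of 1.75 for narrower peaks. The BCAA values were 1.86 (1.31 to 227) and 1.48. A −log10 q of at least 5 was reached by 25.0% of vehicle wide peaks and 14.1% of BCAA wide peaks, compared with 4.47% and 4.60% of narrower ones. Many wide peaks were nevertheless weak, since 40.6% of those with vehicle and 56.2% of those with BCAA had a −log10 q under 2.

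Wide peaks were met by the other library more often than peaks in general. A peak is called met here if the other H3K9me3 list had a peak that shared 1 bp or more with it. Of the 212 vehicle wide peaks, 127 were met by a BCAA peak, or 59.9% (53.0 to 66.6%), against 15.7% of all vehicle peaks on these chromosomes. Of the 899 BCAA wide peaks, 295 were met by a vehicle peak, or 32.8% (29.7 to 36.0%), against 8.22% of all BCAA peaks. The intervals of wide and of all peaks did not overlap in either list. Requiring a single peak to cover 50% of the wide peak left the vehicle share at 49.5% and lowered the BCAA share to 11.7%. With the 212 widest BCAA peaks set against the 212 vehicle peaks, the BCAA share was 56.6% (49.6 to 63.4%), and its interval then overlapped that of the vehicle list. These sets were equal in number but not in width. The BCAA set lay at or above the upper quartile of BCAA wide peaks, 842 bp, while the vehicle set had a median of 608 bp.

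The partners differed in kind between the lists. Of the vehicle wide peaks, 103 (48.6%) met a BCAA peak that was itself wide and 24 (11.3%) met narrower BCAA peaks alone. Over all vehicle peaks, 3.99% met a BCAA peak of 500 bp or more. Of the BCAA wide peaks, 101 (11.2%) met a wide vehicle peak and 194 (21.6%) met narrower vehicle peaks alone, where 0.82% of all BCAA peaks met a vehicle peak of 500 bp or more. A met vehicle wide peak was covered by BCAA peaks over a median of 94.8% of its length, and a met BCAA wide peak by vehicle peaks over a median of 33.3%. These medians leave out the 85 vehicle and 604 BCAA wide peaks that overlapped no peak of the other list.

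Sharing rose with width in steps, at different widths in each list. Among vehicle peaks the share met was 11.0% under 200 bp, 51.2% at 200 to 299 bp, 57.0% at 300 to 399 bp and 52.5% at 400 to 499 bp. It was 43.1% (44 of 102) at 500 to 599 bp, 59.6% (34 of 57) at 600 to 749 bp and 89.7% (26 of 29) at 750 to 999 bp. It was 93.8% (15 of 16) at 1000 to 1499 bp, and all 8 vehicle peaks of 1500 bp or more were met. Among BCAA peaks the share was 3.76% under 200 bp and 10.4% at 200 to 299 bp, and nearly level from 300 to 999 bp. It was 25.7% (155 of 602) at 300 to 399 bp, 28.1% (73 of 260) at 500 to 599 bp, 24.1% (70 of 290) at 600 to 749 bp and 29.7% (73 of 246) at 750 to 999 bp. It then reached 69.4% (50 of 72) at 1000 to 1499 bp and 93.5% (29 of 31) at 1500 bp or more. The limit of 500 bp itself marked no step in either list, since 26.7% of BCAA peaks of 400 to 499 bp were met and the vehicle intervals on both sides of it overlapped.

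**Figure D2:**
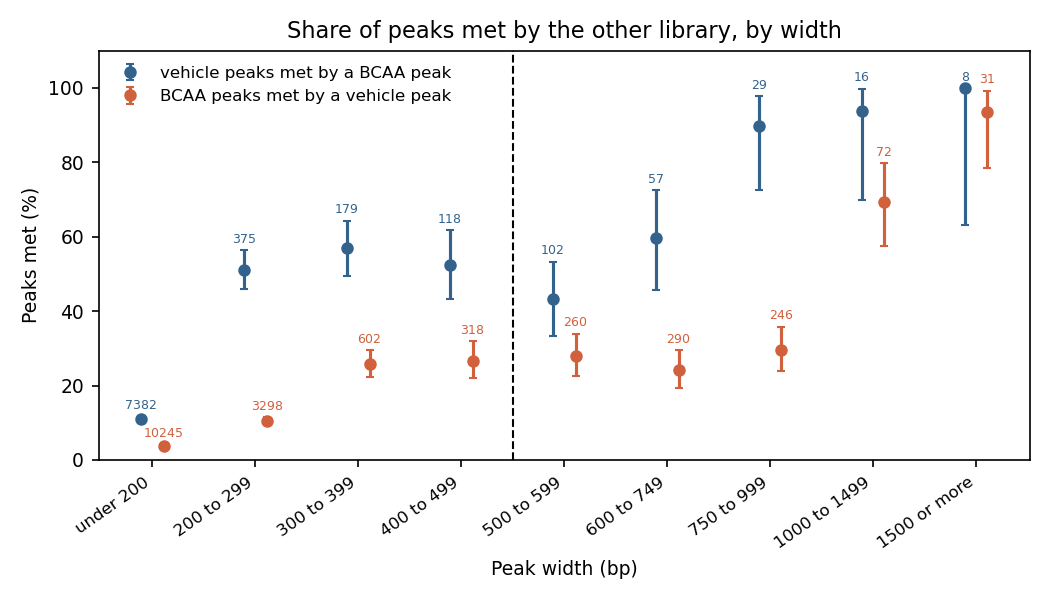
Share of H3K9me3 peaks met by a peak of the other library (vertical axis, %) in classes of width (horizontal axis, bp), with exact 95% binomial intervals and the number of peaks above each point. The dashed line is the 500 bp limit. Vehicle shares rise from 59.6% at 600 to 749 bp to 89.7% in the next class, and BCAA shares from 29.7% at 750 to 999 bp to 69.4% in the next.

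These widths can be set beside the spacing of the lists. The shortest peak was 119 bp in the vehicle list and 163 bp in the BCAA list. The smallest gap between neighbouring peaks was 485 bp and 654 bp, which is 4.08 and 4.01 times the shortest peak. A pair of shortest peaks with a gap 1 bp under the smallest one would measure 722 bp in the vehicle list and 979 bp in the BCAA list, and this width was used as a further division after the data had been seen. Up to 722 bp, 47.7% of 151 vehicle wide peaks were met (39.5 to 56.0%), and above it 90.2% of 61 (79.8 to 96.3%). Up to 979 bp, 27.0% of 790 BCAA wide peaks were met (23.9 to 30.2%), and above it 75.2% of 109 (66.0 to 83.0%). In both lists the longer wide peaks were also the stronger, with a median −log10 q of 3.87 against 1.98 with vehicle and 4.11 against 1.77 with BCAA. Among BCAA wide peaks with a −log10 q from 2 to below 5, the share met was 37.9% (86 of 227) up to 979 bp and 77.5% (31 of 40) above it. With vehicle, in the same range of q, it was 63.6% (28 of 44) up to 722 bp and 89.7% (26 of 29) above it, and these intervals overlapped.

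At a like −log10 q in their own library, wide peaks were also met more often than narrower ones over most of the range. Strength in this comparison means −log10 q alone. Whether an equal q stands for an equal signal in peaks of different width was not tested. Among vehicle peaks with a −log10 q from 2 to below 3, 62.5% of 40 wide peaks were met (45.8 to 77.3%), against 14.7% of 2417 narrower ones (13.3 to 16.2%). From 3 to below 5 the shares were 87.9% of 33 and 38.5% of 598. In the BCAA list they were 32.9% of 164 (25.8 to 40.7%) and 7.47% of 2880 (6.53 to 8.49%) from 2 to below 3, and 61.2% of 103 and 14.0% of 1322 from 3 to below 5. All 25 vehicle and all 68 BCAA wide peaks with a −log10 q of 10 or more were met. Narrower peaks of that strength were met in 80.8% to 82.0% of cases with vehicle and 76.7% to 97.8% with BCAA, in the classes of 10 to below 20 and of 20 or more.

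A wider peak has more bases at which it can be overlapped, so the same question was asked of its midpoint alone, a measure chosen after seeing the data. The midpoint lay inside a BCAA peak for 51.4% of vehicle wide peaks (44.5 to 58.3%) and 13.1% of narrower ones (12.3 to 13.8%). It lay inside a vehicle peak for 14.6% of BCAA wide peaks (12.3 to 17.1%) and 5.50% of narrower ones (5.13 to 5.88%). Among peaks with a −log10 q of at least 5 the vehicle shares were 92.5% of 53 wide and 66.4% of 360 narrower peaks. The BCAA shares at that strength were 50.4% of 127 (41.4 to 59.4%) and 47.2% of 665 (43.4 to 51.1%), and these intervals overlapped. Measured at the midpoint, wide and narrower peaks of the BCAA list thus differed less than by overlap, and strong ones did not differ beyond counting error.

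Where both libraries had a wide peak, the peaks had similar edges in many cases. The 103 vehicle and 101 BCAA wide peaks formed 103 overlapping pairs, and 84 of these (81.6%) overlapped reciprocally by at least 50%. Both edges agreed within 100 bp in 43 pairs (41.7%). The BCAA peak was the wider in 69 pairs (67.0%, 57.0 to 75.9%), and its width was 1.08 times that of the vehicle peak at the median (quartiles 0.958 and 1.38). The BCAA peak contained the whole vehicle peak in 45 pairs, and the vehicle peak contained the BCAA peak in 13. Both peaks of a pair had to reach 500 bp, so wide peaks met by narrower peaks alone are left out. The width ratios are thus partly set by the choice of peaks and are given as descriptions. The interval takes pairs as separate, although chr12:9545781-9548317 and chr5:9054411-9056389 with BCAA each entered more than once. The shortest peak was also longer in the BCAA list, 163 bp against 119 bp. The width ratio ranged from 0.639 to 4.81, so single pairs differed far more than the median shows.

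The 5 pairs whose lower fold enrichment was highest, a rank used only to choose which pairs to name, were close matches. On chromosome 13 the vehicle peak chr13:33514751-33515304 (554 bp, fold enrichment 17.2) matched the BCAA peak chr13:33514703-33515314 (612 bp, 18.1). On chromosome 7, chr7:145727612-145728355 (744 bp, 18.3) with vehicle matched chr7:145727611-145728361 (751 bp, 13.2) with BCAA, and these had the highest −log10 q of all wide peaks in their lists, 231 and 227. The others were chr2:197079082-197079947 with vehicle and chr2:197079039-197079991 with BCAA (12.7 and 13.6), chr19:27945098-27945623 and chr19:27945092-27945623 (13.1 and 12.5), and chr9:8410093-8410599 and chr9:8410110-8410633 (10.9 and 11.1). In these 5 pairs each edge differed by at most 48 bp. At the other extreme, the vehicle peak chr12:9547769-9548295 of 527 bp lay at one end of a BCAA peak of 2537 bp.

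Joining of separate peaks was seen mostly in 1 direction. Of the 899 BCAA wide peaks, 30 overlapped 2 or more vehicle peaks (3.34%, 2.26 to 4.73%), where the share of all BCAA peaks was 0.195%. By construction few narrow peaks can overlap 2 peaks, and no BCAA peak under 750 bp did. Of the 30, 27 overlapped 2 vehicle peaks, 1 overlapped 3 and 2 overlapped 4. Of the 212 vehicle wide peaks, 1 overlapped 2 BCAA peaks (0.472%, 0.0119 to 2.60%), against 0.0121% of all vehicle peaks. The intervals of the wide peaks of the lists overlapped slightly. The 30 BCAA peaks were 780 to 3486 bp wide (median 1502 bp), and the 65 vehicle peaks under them had a median width of 191 bp, 54 of them under 500 bp. Counting only vehicle peaks narrower than 500 bp, 181 BCAA wide peaks spanned 1, 19 spanned 2 and 2 spanned 4, which makes 227 narrower vehicle peaks in all, 155 of them wholly inside. Vehicle wide peaks spanned 25 narrower BCAA peaks, 13 of them wholly inside.

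The peaks with the most parts are described first, with ties broken by width. The widest of all, chr12:3350886-3354371 with BCAA (3486 bp, fold enrichment 4.23), lay over 4 vehicle peaks of 248, 376, 142 and 148 bp with fold enrichments of 6.48, 3.92, 4.13 and 2.89. These covered 26.0% of it, and gaps of 558, 1395 and 574 bp lay between them. On chromosome 18, chr18:38414261-38417191 with BCAA (2931 bp, 6.11) lay over vehicle peaks of 433, 191, 156 and 348 bp, which covered 30.7%, with gaps of 554, 913 and 563 bp. The third, chr12:9545781-9548317 (2537 bp, 4.56), held vehicle peaks of 686, 193 and 527 bp that covered 55.0%. In chr1:56035155-56038049 (2895 bp, 3.50) and chr13:33502443-33505236 (2794 bp, 5.10), a long vehicle peak of 1971 and 1701 bp was joined to a short one of 149 and 184 bp. The reverse case was the vehicle peak chr11:53148723-53150077 (1355 bp, 5.24), which held BCAA peaks of 168 and 205 bp with 657 bp between them.

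**Figure D3:**
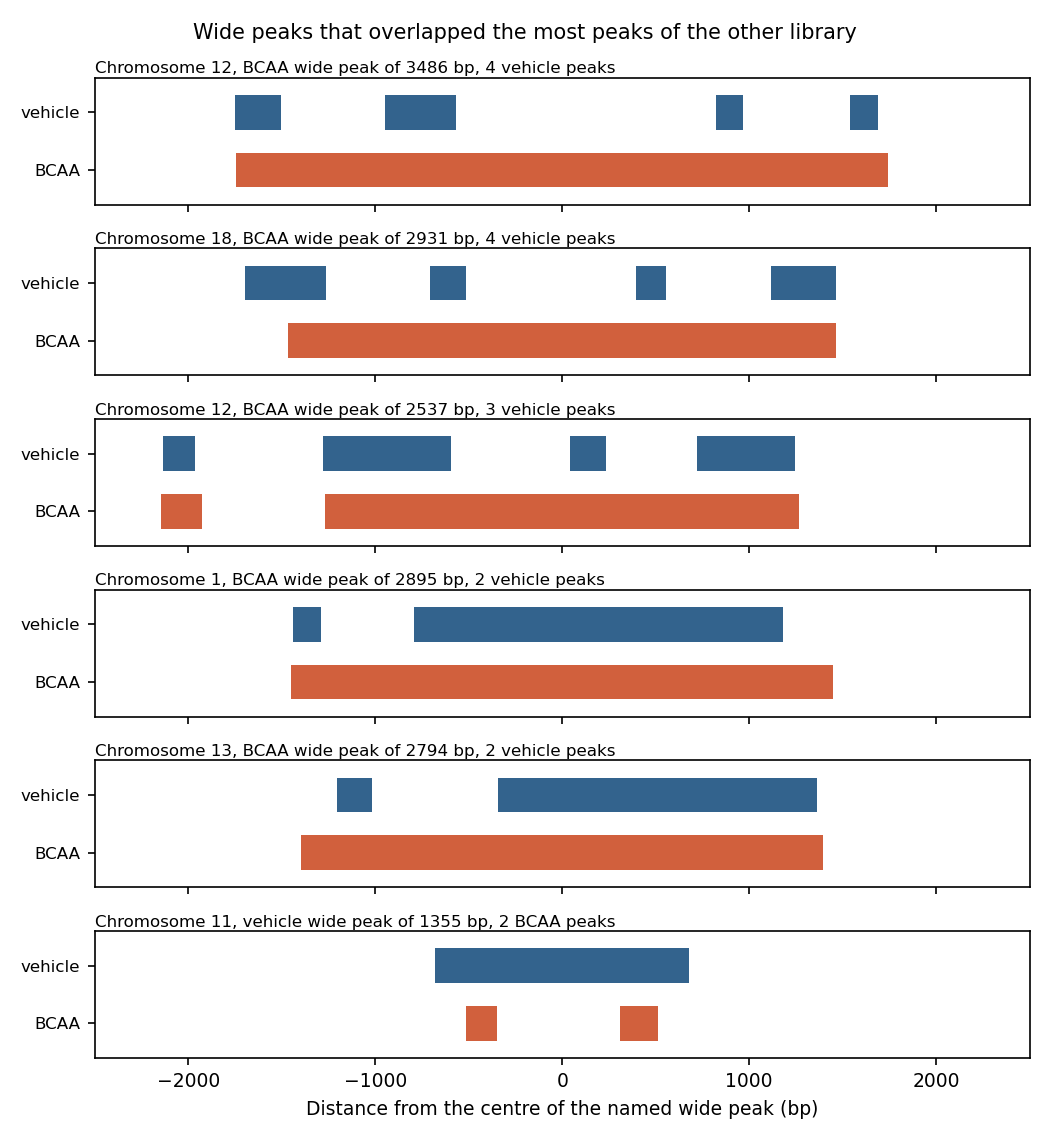
Peaks of the vehicle and BCAA H3K9me3 libraries, drawn to scale, around the 5 BCAA wide peaks that overlapped the most vehicle peaks (ties by width, since 27 overlapped 2) and the single vehicle wide peak that overlapped 2 BCAA peaks (horizontal axis, distance from the centre of the named wide peak in bp). The first 2 BCAA peaks each lie over 4 separate vehicle peaks that cover 26.0% and 30.7% of them.

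Most of the joined vehicle peaks lay at distances at which the BCAA list held no separate peaks. The 30 BCAA peaks bridged 35 gaps between vehicle peaks, of 485 to 1541 bp (median 610 bp). Of these gaps, 22 were shorter than 654 bp, the smallest gap of the BCAA list, and 13 were as long or longer. In 17 of the 30 BCAA peaks every bridged gap was shorter than that. When vehicle peaks less than 654 bp apart were joined first, an alternative chosen after seeing the data, 13 BCAA wide peaks still overlapped 2 or more vehicle peaks (1.45%). The vehicle list then had 235 wide peaks, and the number ratio was 3.83 (3.31 to 4.44). The longest bridged gap, 1541 bp, lay under chr1:117144664-117146970 with BCAA, between vehicle peaks of 121 and 634 bp.

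Narrower vehicle peaks under BCAA wide peaks lay near their ends more often than in the middle. Of 216 narrower vehicle peaks with the midpoint inside a BCAA wide peak, 65, 26, 22, 31 and 72 fell in its 5 equal parts from left to right, so 63.4% (56.6 to 69.9%) were in the 2 outer parts. In BCAA wide peaks above 979 bp the outer share was 79.7% (59 of 74, 68.8 to 88.2%), and up to that width 54.9% (78 of 142, 46.4 to 63.3%). These counts include the vehicle peaks under the 30 BCAA wide peaks that overlapped 2 or more. Vehicle peaks lay at least 485 bp apart, so several under 1 BCAA peak are spread towards its ends partly by construction. Shares without those 30 were not computed, so no preference for the ends is shown. In vehicle wide peaks the 23 narrower BCAA peaks inside fell as 4, 7, 4, 1 and 7. The outer parts held 47.8% of them (26.8 to 69.4%), too few to be read closely. The narrower vehicle peaks at BCAA wide peaks were also stronger than most. Their median −log10 q in the vehicle library was 2.91, against 1.75 for all narrower vehicle peaks, and 78.0% of them reached 2, against 41.9%. Only 14.5% of all narrower vehicle peaks met any BCAA peak. The share met rose with −log10 q, from 6.84% below 1.5 to 82.0% at 20 or more. The higher values are thus not shown to be particular to BCAA peaks that were wide.

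Wide peaks without a partner were mostly weak in both lists, and at the median less wide than those with one. The 85 unmet vehicle wide peaks had a median −log10 q of 1.63 and a median width of 565 bp, and the 127 met ones 4.01 and 674 bp. The 604 unmet BCAA wide peaks had medians of 1.61 and 676 bp, and the 295 met ones 3.60 and 765 bp. A vehicle peak lay within 5 kb of 10.4% of the unmet BCAA wide peaks (63 of 604, 8.11 to 13.2%), against 4.95% of unmet narrower BCAA peaks. Within 100 kb these shares were 61.9% and 51.8%. For unmet vehicle wide peaks the shares were 10.6% within 5 kb (9 of 85, 4.96 to 19.2%) and 75.3% within 100 kb, close to the 9.80% and 74.1% of unmet narrower vehicle peaks.

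Few strong wide peaks had no partner. Of those with a −log10 q of at least 5, 51 of 53 with vehicle and 115 of 127 with BCAA were met. With vehicle, the unmet wide peaks of highest enrichment were chr5:91632611-91633138 (528 bp, fold enrichment 7.62), chr14:42020268-42020947 (680 bp, 6.62), chr6:8394111-8394623 (513 bp, 5.31), chr2:115533141-115533805 (665 bp, 5.12) and chr3:51260511-51261193 (683 bp, 4.92). With BCAA they were chr16:17247716-17248244 (529 bp, 7.66), chr13:33630007-33630849 (843 bp, 7.21), chr18:538900-539405 (506 bp, 7.14), chr12:41246518-41247289 (772 bp, 6.36) and chr6:11969778-11970665 (888 bp, 6.31). Their −log10 q ran from 3.18 to 7.62 with vehicle and from 6.13 to 8.65 with BCAA. The widest unmet peak was chr5:163912798-163914591 with BCAA (1794 bp, fold enrichment 4.08, −log10 q 2.01), and with vehicle chr6:117702588-117703604 (1017 bp, 3.63, 1.67). The widest unmet peaks were picked once their values were known. A site without a peak in the other list may be unmarked or undetected there, and the lists do not tell which.

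Wide peaks were found on all 20 chromosomes in both libraries. With vehicle their number ran from 2 on chromosome 20 to 25 on chromosome 2, and with BCAA from 17 on chromosome 11 to 115 on chromosome 1. As a share of the peaks of the same chromosome, BCAA wide peaks were most frequent on chromosome 12, at 9.63% (39 of 405, 6.94 to 12.9%). They were least frequent on chromosome 11, at 3.43% (17 of 495, 2.01 to 5.44%), and chromosome 10, at 3.64% (20 of 549, 2.24 to 5.57%). These 3 were the chromosomes whose interval left out the 5.85% of the whole BCAA list. With vehicle, chromosome 14 alone did so, at 4.80% (18 of 375, 2.87 to 7.48%), and on chromosomes 12, 11 and 10 the vehicle shares were 3.35%, 1.93% and 1.79%, each with an interval that included the list's 2.56%. The intervals were not adjusted for 20 chromosomes. All 8 vehicle wide peaks on chromosome 19 were met by BCAA peaks, and none of the 3 on chromosome 15 or the 3 on chromosome 18.

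**Figure D4:**
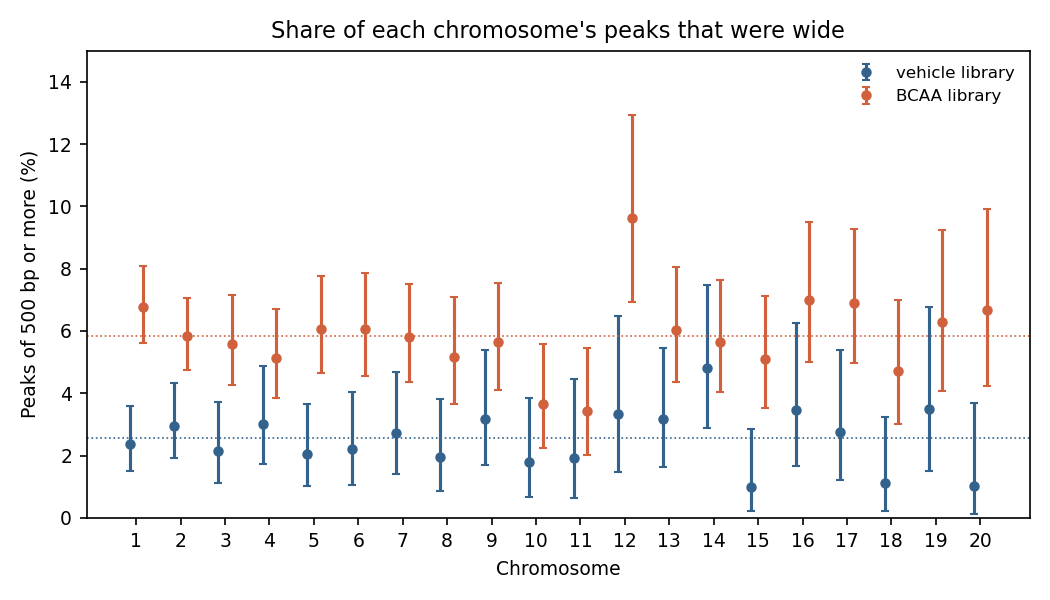
Share of each chromosome's H3K9me3 peaks that were 500 bp or wider (vertical axis, %) in the vehicle and BCAA libraries, with exact 95% binomial intervals, and the share of each whole list as a dotted line. Chromosome 12 stands highest with BCAA (9.63%) and chromosome 14 with vehicle (4.80%).

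Wide peaks of the same list were usually far apart. The nearest other wide peak lay at a median of 2485 kb with vehicle (quartiles 548 and 8851 kb) and 662 kb with BCAA (96.9 and 1996 kb). Another wide peak within 100 kb was present for 34 of 212 vehicle wide peaks (16.0%, 11.4 to 21.7%) and 228 of 899 BCAA wide peaks (25.4%, 22.5 to 28.3%). Of all peaks of each list, 54.4% and 71.9% had another peak of any width at that distance, but those lists are far denser and the shares are not on a common scale. Counted against peaks of any width in the own list, wide peaks had close neighbours more often than narrower ones. A peak lay within 10 kb of 21.7% of vehicle wide peaks (16.4 to 27.9%) and 9.51% of narrower ones, and of 27.4% (24.5 to 30.4%) and 12.9% with BCAA, where all peaks had 9.82% and 13.8%.

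On a scale of 1 Mb, wide peaks occupied 183 intervals with vehicle and 640 with BCAA, of 2619 intervals that held any peak of either list. Both kinds were present in 116 intervals, 63.4% of the vehicle and 18.1% of the BCAA intervals, which largely restates the overlap of wide peaks given above. Wide peaks that overlapped no wide peak of the other list lay in 107 intervals with vehicle and 589 with BCAA. Of the 107, 38 held such peaks of both lists (35.5%, 26.5 to 45.3%), against 22.5% of all 2619 intervals that held one with BCAA. Most occupied intervals held a single wide peak, 166 with vehicle and 515 with BCAA. Intervals with 3 or more numbered 7 with vehicle and 52 with BCAA.

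Runs of at least 3 wide peaks with gaps of at most 100 kb numbered 3 with vehicle, holding 12 wide peaks, and 32 with BCAA, holding 140. All 12 vehicle wide peaks in runs were met by BCAA peaks, against 57.5% of those elsewhere. These 12 lay in 3 places and had a −log10 q of 2.83 to 39.5, above the median of 2.47 for vehicle wide peaks. Of all vehicle wide peaks with a −log10 q of at least 5, 96.2% were met. Of the BCAA wide peaks in runs, 52.1% were met (73 of 140, 43.5 to 60.6%), against 29.2% elsewhere (26.0 to 32.6%). Shares in runs and elsewhere were not compared at a like strength. Of the 32 BCAA runs, 29 held a vehicle peak and 15 held a wide one. The 5 BCAA runs named, with ties broken by the shorter span, were on chromosome 13 (17 in 341 kb), chromosome 17 at chr17:89389541-89468717 (7), chromosome 9 at chr9:12359753-12500554 (7) and chr9:8394489-8482209 (6), and chromosome 16 at chr16:66248288-66344837 (6). Among the wide peaks of these 5 runs, 10, 5, 4, 5 and 5 were met by vehicle peaks. A further run with 6, chr1:99033990-99160632, was longer and had 2 met. The vehicle runs were on chromosome 13 at chr13:33485637-33571256 (6), chromosome 12 at chr12:9530442-9548295 (3) and chromosome 14 at chr14:4892202-4974060 (3).

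The chromosome 13 run held the most wide peaks in both lists, and the vehicle run lay within the BCAA run chr13:33478713-33820046. Its first 92.5 kb held all 6 vehicle wide peaks, of 554 to 1934 bp, and each was covered over at least 99.0% of its length by a BCAA wide peak. The BCAA wide peaks numbered 17 and were 518 to 2794 bp wide. Beyond the last vehicle wide peak, which ended at 33571256, 9 further BCAA wide peaks followed. Of these, 4 overlapped vehicle peaks, all narrower than 500 bp, and covered over 15.4% to 48.6% of their length, and 5 overlapped none. Peaks of 500 bp or more were thus seen in both libraries at one end of the run and with BCAA alone at the other. The vehicle list held 24 peaks of any width in the BCAA run, 10 of them in the vehicle run. Vehicle peaks were therefore not absent from the rest of the BCAA run. Without chromosome 13 from 33 to 34 Mb, 13.6% of vehicle and 23.9% of BCAA wide peaks had another within 100 kb.

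**Figure D5:**
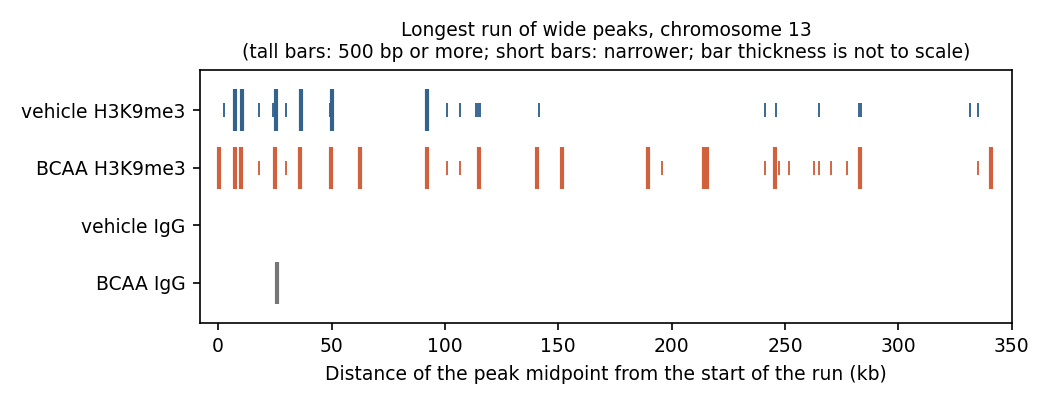
Peak midpoints along the longest run of wide peaks, on chromosome 13 (horizontal axis, distance from the start of the run in kb), in the 4 libraries. Tall bars are peaks of 500 bp or more and short bars narrower peaks. The 6 vehicle wide peaks all lie in the first 92.5 kb, while the 17 BCAA wide peaks extend over 341 kb. The single IgG peak, from the BCAA IgG library, lies within the third vehicle wide peak.

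The IgG libraries gave few peaks on these chromosomes, but some of them were wide. The vehicle IgG list held 7 such peaks, of which 2 reached 500 bp, chr5:84281907-84282550 (644 bp, fold enrichment 4.71) and chr8:53189019-53189610 (592 bp, 4.71). The BCAA IgG list held 4, of which 1 did, chr13:33504477-33505057 (581 bp, 6.50). The shares, 28.6% (3.67 to 71.0%) and 25.0% (0.631 to 80.6%), rest on too few peaks to be read closely. The IgG peak on chromosome 13 overlapped 1 wide peak in each H3K9me3 list, chr13:33503499-33505199 with vehicle and chr13:33502443-33505236 with BCAA. No other wide H3K9me3 peak lay at an IgG peak. Without the wide peaks at IgG peaks, 211 remained with vehicle and 898 with BCAA. The number and length ratios and the shares met, with 2 or more partners and with a wide neighbour all stayed within their intervals. So small a change in the lists could hardly move them, so this is no check on background signal.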

How the data were processed

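The deposited files were 1 list of broad peaks per library. The submitters' processing notes name BWA, MACS2, deepTools, ChIPseeker and the build rn6, with no version or role. The sources used here do not give thresholds, the joining distance or any use of IgG in calling. For each peak there is a deposited whole-number score, not used here, a fold enrichment (a linear ratio, by the authors), and a deposited −log10 p and −log10 q. Coordinates are 1-based, in rn6.

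Lists were compared in Python 3.11.15 with numpy 2.4.6, pandas 2.3.3 and scipy 1.17.1, and plots used matplotlib 3.10.9. Overlap, joining and distance functions were tested on simulated peaks against bedtools 2.31.1. The replicate is the library, with 1 per group, so no p-value was computed. Intervals are exact (Clopper-Pearson) 95% binomial intervals of peaks, which are not replicates. The interval of the covered-length ratio was taken as that of the number ratio in relative terms.

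Named regions were, per list, the 5 widest, the 5 with the most partners, the 5 strongest unmet, the 5 strongest pairs, the 5 fullest runs, those at IgG peaks and those at the width limit. The regions and alternatives were chosen with earlier results of these data known. No sequence, gene or repeat is given, since the rn6 genome and annotation were not used here.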

Additional observations from a re-analysis of the deposited data

How the results depend on the processing

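Of 85 alternative values for 8 results, 50 stayed within the interval of the value reported, and the number and length ratios stayed above 1 in the 8 alternatives run for each, from 2.40 to 4.29 and from 2.86 to 4.60. Among the 50 are the vehicle values with equal numbers of the widest peaks, which could not change because the same 212 peaks enter. The values of all 8 results without wide peaks at IgG peaks are also among them. There 211 vehicle and 898 BCAA wide peaks remained, so little change was possible. The other 35 follow, and the cause of the shifts was not tested except where fewer or other peaks enter by construction. With −log10 q of at least 5, the number ratio was 2.40 and the length ratio 2.86. The shares met were 96.2% (vehicle) and 90.6% (BCAA), those with 2 or more partners 0 of 53, or 0%, and 17.3%, and those with a wide neighbour within 100 kb 32.1% and 43.3%. At 1000 bp these shares were 95.8% and 76.7%, 4.17% and 24.3%, and 8.33% and 16.5%, and at 400 bp the BCAA neighbour share was 29.9%. With 3 times the own median width the ratios were 2.77 and 3.42. Joining peaks within 1 kb gave a length ratio of 3.66 and 1.27% of BCAA wide peaks with 2 or more partners. Joining vehicle peaks alone, below the smallest BCAA gap, gave 3.83 and 1.45%. This setting and the one without chromosome 13 from 33 to 34 Mb were chosen after seeing the data. With equal numbers of the widest peaks, the BCAA shares were 56.6% met, 13.7% with 2 or more and 20.8% with a neighbour. The shares met were 49.5% and 11.7% with 50% of the wide peak, 42.9% and 11.5% with reciprocal 50%, and for BCAA 39.8% with a peak within 5 kb. Neighbour shares were 22.1% and 30.4% with the 2 intervals of chromosome 1 kept, 8.49% and 12.9% at 20 kb, and 31.6% and 58.6% at 1 Mb. No paired analysis was possible because every group is a single library.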

Other observations

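Wide peaks outside the chosen chromosomes and positions are given as values. In the 2 intervals of chromosome 1 left out above, 19 of 154 vehicle peaks (12.3%) and 65 of 202 BCAA peaks (32.2%) were 500 bp or wider, and 18 and 50 of these were met by the other library. On chromosome X they were 9 of 280 (3.21%) with vehicle and 33 of 618 (5.34%) with BCAA, of which 8 and 16 were met. Unplaced scaffolds held 3 of 214 (1.40%) and 20 of 497 (4.02%), of which 1 and 4 were met. The mitochondrial chromosome, which carries no histones, had 4 wide peaks in each H3K9me3 list, all of them met, and the vehicle and BCAA IgG lists had 4 and 3 there.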
